A study of Mus musculus with 12 samples.

Results

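The genes described here are the members of the TGF-beta and BMP signalling pathway: ligands, the proteins that store or trap them, receptors, Smads and the proteins that restrain Smads. They were chosen by gene symbol alone, taking symbols that begin with Tgfb, Bmp followed by a digit, Bmpr, Bmper, Smad followed by a digit, Smurf, Inhb, Acvr, Ltbp, Fst or Grem, together with Nog, Bambi, Chrd and Skil. Of 11015 genes on the deposited table, 44 were such members, and each is represented by its brightest probe set unless other probe sets are named. Some well-known genes of the pathway, such as Acvrl1, Nog, Smad9, Bmp6 and Bmp7, were not analysed here. RNA came from cultured aortic endothelial cells of mice aged 4 weeks and was measured on Affymetrix arrays. The Ets1/2 null cells had the genotype Ets1-/-; Ets2fl/fl and received a lentivirus carrying egfp and Cre recombinase (2 arrays used). The Ets1 null cells had the same genotype but received a lentivirus carrying egfp without Cre (3 arrays). The Ets2 null cells were Ets1+/+; Ets2fl/fl and received the virus with egfp and Cre (3 arrays). The wild type cells were Ets1+/+; Ets2+/+ and received the virus with egfp alone (3 arrays). All groups thus carried a lentivirus and were grown in medium with serum and endothelial growth supplement. Cre was present in both groups labelled as lacking Ets2 and in neither of the others, so exposure to Cre and the labelled loss of Ets2 cannot be told apart.

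Ets1 and Ets2 are transcription factors of the ETS family, which bind DNA at a GGAA core. TGF-beta family ligands are secreted dimers that bring together type I and type II serine/threonine kinase receptors. TGF-beta and activin receptors phosphorylate Smad2 and Smad3, BMP receptors phosphorylate Smad1 and Smad5, and both kinds of Smad enter the nucleus with Smad4. Smad6, Smad7, the Smurf ubiquitin ligases and the co-repressor Skil hold the pathway back, and several of them are themselves induced by it. In endothelium, BMP signals through Bmpr2 and Smad1/5 induce Id genes and are required for normal vessels, while TGF-beta can drive a change towards mesenchymal character.

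Several facts about the arrays bear on every value. In the deposited table, replicate 3 of Ets1/2 null was the average of replicates 1 and 2 in 99.9903% of probe sets and was left out, so this group has n = 2. The median gene lay at 8.69 and 8.73 (deposited log2) on the arrays labelled Ets1/2 null, against 9.37 to 9.50 on the other 9. Values were therefore centred, by subtracting each array's median over all genes, and every difference below is on this centred log2 scale unless the deposited scale is named. Against wild type, the median difference of all genes in the arrays labelled Ets1/2 null was 0.11 on the centred scale and -0.61 on the deposited scale. A call that passed in the same direction on both is described as holding on both scales. For genes called lower on the arrays labelled Ets1/2 null this adds no check, since those arrays lie lower as deposited. All 1317 genes called lower there against wild type on the centred scale also passed on the deposited scale, but 256 of 1801 called higher did. Ets1 itself, by its brightest probe set, read 10.02 to 10.29 (deposited log2) on the arrays labelled Ets1/2 null, 8.31 to 9.17 for Ets1 null, 9.50 to 9.88 for Ets2 null and 9.84 to 10.26 for wild type. Ets1 null minus wild type was -1.35 ± 0.23 on the centred scale (SE, adjusted p = 0.151), so that comparison did not call its own targeted gene. Centred, the arrays labelled Ets1/2 null were 2.17 ± 0.25 above Ets1 null (SE, adjusted p = 0.000713) and 0.82 ± 0.25 above wild type (adjusted p = 0.0393). By this probe set that goes against their label, but other Ets1 probe sets differed (centred log2). A dimmer probe set read -2.25 to -1.64 on the arrays labelled Ets1/2 null, -1.75 to -0.90 for Ets1 null and -0.68 to -0.65 for wild type. Another read -1.33 to -0.71, -2.52 to -1.54 and -1.21 to -1.02 in the same order. The last read 1.08 to 1.12, -1.34 to -0.565 and 0.23 to 0.71. Ets2 read 9.63 to 11.02 on the arrays labelled Ets1/2 null, 9.35 to 10.13 for Ets2 null and 9.72 to 10.70 for wild type (Ets2 null minus wild type -0.43 ± 0.35, adjusted p = 0.544). The arrays labelled Ets1/2 null were 1.33 ± 0.40 above Ets2 null in Ets2 (adjusted p = 0.0325) and 0.90 ± 0.40 above wild type (adjusted p = 0.121), so Ets2 was not lower there than in wild type either. Where the deleted sequence lies relative to the probes is not given in the sources used here. By the Y-linked gene Eif2s3y, all 3 Ets2 null arrays and wild type replicate 1 were male and the other 7 arrays female. Of 18 endothelial markers 5 were on the table, and the others were not analysed here. Median values of 9 fibroblast markers were -1.52 and 0.98 on the arrays labelled Ets1/2 null, -2.87 to -0.99 on Ets1 null arrays, 0.47 to 1.76 on Ets2 null arrays and -1.21 to 1.12 on wild type arrays. Median values of the 5 endothelial markers were -2.13 and -1.30, -1.82 to -1.44, -1.50 to -0.01, and -1.29 to -0.93 in the same order of groups. Of 8 smooth muscle markers the medians were -0.55 and -0.43, -1.73 to 1.22, -0.02 to 0.07, and -1.57 to 0.09. Those of 5 leukocyte markers lay between -2.46 and -1.83 on all arrays, and those of 4 epithelial and mesothelial markers between -1.85 and 0.40. Against wild type 1 leukocyte marker was called on the arrays labelled Ets1/2 null, and 0 markers of the other lists in any group. Of all genes 28.3% were called on the arrays labelled Ets1/2 null, 0.00908% in Ets1 null and 0.436% in Ets2 null. At such low shares, 0 calls in the single nulls cannot show whether composition changed. In bulk RNA, fewer cells of a type and less RNA per cell cannot be told apart. The part of culture composition and of sex in the results below was not tested, except where a fit with a term for male arrays is given.

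Because ETS factors bind GGAA, promoter windows of the members were read from RefSeq (GRCm38.p6), as stretches of 300 bases that end shortly after each annotated start. Windows were found for 33 of the 44 members, 40 windows in all, some of them overlapping starts of 1 gene. GGAA or its complement TTCC was present in 38 of 40 member windows (95.0%) and in 96.0% of all 32841 windows, and the median was 3 cores in each set. The longer ETS site CCGGAAGT, which contains the core, was in 1 member window (2.5%) and in 3.89% of all windows on either strand. The Smad box CAGAC was in 18 member windows (45.0%) and in 49.6% of all. The GC-rich Smad site GGCGCC was in 14 member windows (35.0%) and in 11.9% of all, and the median GC content was 67.0% in member windows and 52.7% in all windows. The 5 windows printed here belong to members called on both scales in the comparisons that follow, with the GGAA or TTCC cores in capitals. The first Smad5 window lies at chr13:56702760-56703059 on the + strand with 1 core, and the second at chr13:56703418-56703717 on the + strand with 4 cores. The Bmpr2 window lies at chr1:59764029-59764328 on the + strand and has 6 cores. The Inhba window lies at chr13:16011601-16011900 on the + strand and has 2. The Ltbp4 window lies at chr7:27337563-27337862 on the - strand and has 1. For Smad5 and Ltbp4 these are not all the windows. The remaining Smad5 window overlaps the first, at chr13:56702802-56703101, and has 1 core. Ltbp4 has 3 windows, and the others, at chr7:27333599-27333898 and chr7:27333614-27333913, overlap each other and have 2 cores each and a GGCGCC site, which the printed window lacks. Each is written 5′ to 3′ on the gene's own strand. A core in a window is a description of the letters there, and no binding was measured.
Smad5 first window: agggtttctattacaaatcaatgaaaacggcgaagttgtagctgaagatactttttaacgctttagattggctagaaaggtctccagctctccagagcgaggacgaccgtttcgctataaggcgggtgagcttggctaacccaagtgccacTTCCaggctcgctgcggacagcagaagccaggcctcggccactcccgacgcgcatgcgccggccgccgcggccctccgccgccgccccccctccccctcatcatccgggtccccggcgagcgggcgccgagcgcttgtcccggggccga
Smad5 second window: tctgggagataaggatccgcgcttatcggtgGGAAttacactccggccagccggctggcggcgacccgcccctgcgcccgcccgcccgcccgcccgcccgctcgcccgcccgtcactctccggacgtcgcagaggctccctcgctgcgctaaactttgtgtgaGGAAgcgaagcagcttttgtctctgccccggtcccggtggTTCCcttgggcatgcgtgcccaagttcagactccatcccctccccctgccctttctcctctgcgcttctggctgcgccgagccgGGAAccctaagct
Bmpr2: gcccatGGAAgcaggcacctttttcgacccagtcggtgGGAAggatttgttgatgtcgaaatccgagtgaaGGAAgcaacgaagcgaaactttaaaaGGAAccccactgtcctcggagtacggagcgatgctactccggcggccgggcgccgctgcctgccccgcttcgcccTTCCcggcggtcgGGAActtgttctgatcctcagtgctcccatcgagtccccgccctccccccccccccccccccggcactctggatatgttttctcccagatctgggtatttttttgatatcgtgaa
Inhba: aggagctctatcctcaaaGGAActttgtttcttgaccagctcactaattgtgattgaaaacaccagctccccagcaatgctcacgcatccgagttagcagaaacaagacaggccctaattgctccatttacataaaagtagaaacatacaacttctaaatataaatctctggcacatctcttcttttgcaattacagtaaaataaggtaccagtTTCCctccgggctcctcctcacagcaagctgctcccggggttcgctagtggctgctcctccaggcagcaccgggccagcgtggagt
Ltbp4: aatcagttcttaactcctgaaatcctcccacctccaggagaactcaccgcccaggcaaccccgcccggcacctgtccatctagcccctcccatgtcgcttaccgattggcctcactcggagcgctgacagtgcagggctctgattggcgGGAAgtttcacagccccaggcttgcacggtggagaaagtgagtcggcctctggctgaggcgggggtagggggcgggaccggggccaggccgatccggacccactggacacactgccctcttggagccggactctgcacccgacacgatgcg

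The arrays labelled Ets1/2 null carried most of the calls among the members, and no member passed the threshold against wild type in either single null. In the arrays labelled Ets1/2 null, activin subunit Inhba, BMP receptor Bmpr2 and co-repressor Skil rose and Smad5 and Bmp10 fell against wild type on both scales. Of the 44 members, 11 were called against wild type (25%), 9 higher and 2 lower, where 28.3% of all genes were called, 16.4% higher and 12% lower (limma, Benjamini-Hochberg adjusted p under 0.05 over all 11015 genes). On both scales 3 members were higher (6.82%, against 2.32% of all genes) and 2 were lower (4.55%, against 12% of all genes). Against Ets1 null, 13 members were called (29.5%, against 28.7% of all genes), 10 higher and 3 lower, beside 17.4% and 11.3% of all genes. On both scales 4 were higher and 3 lower (9.09% and 6.82%, against 1.72% and 11.3% of all genes). Against Ets2 null, 19 were called (43.2%, against 30.3% of all genes), 12 higher and 7 lower, beside 17.1% and 13.2% of all genes. On both scales 3 were higher and 7 lower (6.82% and 15.9%, against 3% and 13.2% of all genes). The count against Ets2 null dropped to 1 member, Smad5, when a term for male arrays was added to the fit, where 2.37% of all genes were still called. These 3 comparisons share the same 2 arrays, so their calls are not independent of each other. The median member difference was 0.36 against wild type, 0.52 against Ets1 null and 0.41 against Ets2 null, beside 0.11, 0.17 and 0.14 for all genes. Members did not overlap between the arrays labelled Ets1/2 null and wild type in 18 cases lying higher (40.9%, against 30.2% of all genes) and in 4 lying lower (9.09%, against 22.1% of all genes). Against Ets1 null such members numbered 17 higher and 4 lower, beside 36.2% and 22.2% of all genes, and against Ets2 null 17 higher and 9 lower, beside 32.3% and 23.1%. An F test over the 4 groups called 18 members (40.9%) and 30.6% of all genes.

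**Figure D1:**
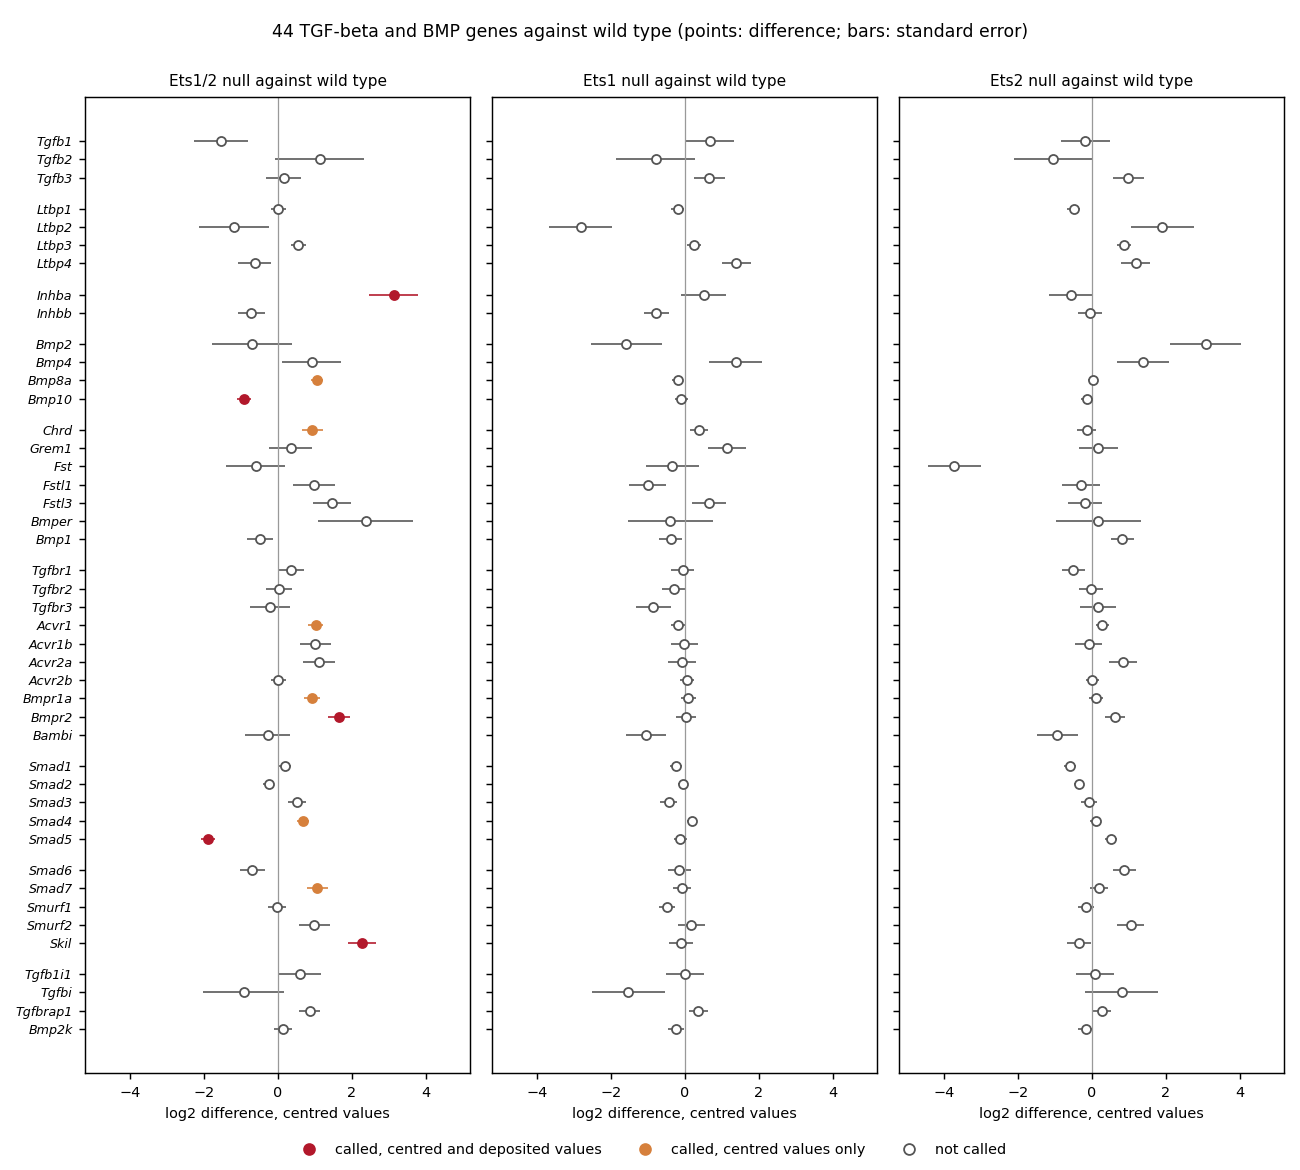
Difference from wild type of each of the 44 members (log2, centred values; points, difference; bars, SE), ordered by role, in the arrays labelled Ets1/2 null, in Ets1 null and in Ets2 null cells. Filled points passed adjusted p under 0.05; all 11 lie in the left panel, and 5 of them (red) passed on both scales.

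In Ets1 null cells 0 members were called against wild type, as was 0.00908% of all genes, and 4 members (9.09%, against 8.71% of all genes) had an unadjusted p under 0.05. The lowest adjusted p was 0.408, for the matrix protein gene Ltbp4 at 1.39 ± 0.39. In Ets2 null cells 0 members were called, beside 0.436% of all genes, and 13 (29.5%, against 18.9%) had an unadjusted p under 0.05. The lowest adjusted p there was 0.0587, for the activin antagonist Fst at -3.71 ± 0.72. With limma array weights, which let arrays that agree poorly count less, 8 members were called in Ets2 null cells, 5 higher and 3 lower, beside 9.85% of all genes. Ets1 null arrays lay apart from wild type in 3 members lying higher and 6 lower, beside 7% and 11.5% of all genes, and Ets2 null arrays in 7 higher and 5 lower, beside 13.6% and 13.4%. Median member differences from wild type were -0.10 in Ets1 null and 0.06 in Ets2 null cells.

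Among the TGF-beta ligands none of the 3 was called in any of the comparisons in the fit over genes. Tgfb1, the main isoform of vessel wall and immune cells, read -2.38 and -0.41 on the arrays labelled Ets1/2 null, 1.09, 0.58 and 0.76 on Ets1 null arrays, 0.84, 0.52 and -1.46 on Ets2 null arrays and 0.51, 0.41 and -0.50 on wild type arrays. Both arrays labelled Ets1/2 null lay below all 3 Ets1 null arrays, but the difference missed the threshold (-2.21 ± 0.74, adjusted p = 0.0508), and against wild type the groups overlapped (-1.54 ± 0.74, adjusted p = 0.15). On the deposited scale the same differences were -2.97 (adjusted p = 0.00861) and -2.26 (adjusted p = 0.0289). In a fit over all probe sets that name 1 gene, the centred difference from Ets1 null passed the threshold (adjusted p = 0.0448). Tgfb2 separated the 2 arrays labelled Ets1/2 null from each other, at 0.39 and -3.67, and wild type arrays likewise spread from -3.79 to -0.97. Tgfb3 lay between -0.30 and 1.64 on all 11 arrays.

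Of the 4 latent TGF-beta binding protein genes, a family named for tethering ligand to the matrix, 0 were called against wild type. On the arrays labelled Ets1/2 null Ltbp4 was called lower against Ets1 null, and Ltbp4 and Ltbp2 against Ets2 null. Ltbp4, which also organises elastic fibres, was -1.18 and -0.16 on the arrays labelled Ets1/2 null, 1.17, 1.02 and 1.86 on Ets1 null arrays, 1.50, 0.70 and 1.22 on Ets2 null arrays and -0.51, 0.63 and -0.25 on wild type arrays. The arrays labelled Ets1/2 null lay below every single-null array and overlapped with wild type. Ltbp4 fell by 2.02 on the log2 scale against Ets1 null (SE 0.44, adjusted p = 0.00964) and by 1.81 against Ets2 null (adjusted p = 0.0141), both on both scales, while the difference from wild type was -0.63 ± 0.44 (adjusted p = 0.313). Without replicate 1 of the arrays labelled Ets1/2 null, its adjusted p was 0.071 against Ets1 null and 0.102 against Ets2 null. Ltbp2, a fibrillin-binding family member that does not itself carry latent TGF-beta, was -1.10 and -3.39 on the arrays labelled Ets1/2 null, -4.67, -3.82 and -3.13 on Ets1 null arrays, -0.96, 2.05 and 1.43 on Ets2 null arrays and -1.18, -0.34 and -1.66 on wild type arrays. It fell by 3.09 against Ets2 null (SE 0.95, adjusted p = 0.0368), and all 3 Ets1 null arrays lay below all wild type arrays without passing the threshold (-2.81 ± 0.85, adjusted p = 0.443). That Ltbp2 call was lost under 9 of 19 other settings, and without Ets1/2 null replicate 2 the difference was -1.94 (adjusted p = 0.242). Ltbp1 and Ltbp3 were bright on all arrays, between 2.09 and 3.38, and were not called by their brightest probe sets. A second bright probe set of Ltbp3 was called higher, by 1.21 against wild type (adjusted p = 0.00388) and by 1.01 against Ets1 null (adjusted p = 0.00965). Its 2 dim probe sets were called lower against Ets2 null, at -1.73 and -2.03 (adjusted p = 0.00149 and 0.0074). Against Ets1 null a dim probe set was called lower as well. The brighter of the 2 read -3.60 and -3.51 on the arrays labelled Ets1/2 null and -2.85 to -2.30 on Ets1 null arrays.

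Activin A is a dimer of the Inhba product, and follistatin, encoded by Fst, traps it outside the cell. Inhba was 2.82 and 4.46 on the arrays labelled Ets1/2 null, 1.17, 0.61 and 1.27 on Ets1 null arrays, 0.64, -0.16 and -0.63 on Ets2 null arrays and -0.25, 1.75 and 0.05 on wild type arrays. The arrays labelled Ets1/2 null lay above all others. Inhba rose by 3.13 ± 0.67 against wild type (adjusted p = 0.00891), 2.62 ± 0.67 against Ets1 null (adjusted p = 0.0186) and 3.69 ± 0.67 against Ets2 null (adjusted p = 0.00426), in each case on both scales. Without replicate 2, the higher of the 2 arrays labelled Ets1/2 null, the difference was 2.31 from wild type (adjusted p = 0.0733) and 1.80 from Ets1 null (adjusted p = 0.131). Inhbb, the other activin subunit measured, was never above 6.5 on the deposited scale on the arrays labelled Ets1/2 null and was not called. Fst was 1.95 and -0.82 on the arrays labelled Ets1/2 null, 1.47, 0.61 and 0.40 on Ets1 null arrays, -3.30, -1.97 and -2.37 on Ets2 null arrays and 0.47, 2.14 and 0.89 on wild type arrays. Every Ets2 null array lay below every other array. Fst was 3.11 ± 0.80 higher on the arrays labelled Ets1/2 null than in Ets2 null (adjusted p = 0.0186), and its second probe set gave 1.99 (adjusted p = 0.0606). Without Ets1/2 null replicate 1 the difference was 1.73 (adjusted p = 0.124). All Ets2 null arrays were male, and with the term for male arrays the difference was 2.07 ± 1.35 (adjusted p = 0.409). The follistatin-like genes Fstl1 and Fstl3 were called on the centred scale alone, Fstl1 higher than in Ets1 null (1.98 ± 0.56, adjusted p = 0.0283) and Fstl3 higher than in Ets2 null (1.64 ± 0.51, adjusted p = 0.0395).

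Of the 4 BMP ligands, Bmp10 fell and Bmp8a rose in the arrays labelled Ets1/2 null, and both were dim. Bmp10, a circulating ligand made mainly by heart, read 5.74 and 5.78 (deposited log2) on the arrays labelled Ets1/2 null and 6.99 to 7.57 on the other arrays. Centred, that was -2.99 and -2.91 on the arrays labelled Ets1/2 null, -2.13, -2.20 and -2.09 on Ets1 null arrays, -1.84, -2.24 and -2.46 on Ets2 null arrays and -1.88, -2.03 and -2.22 on wild type arrays. The groups did not overlap, and the difference from wild type was -0.90 ± 0.19 (adjusted p = 0.00829). Bmp8a was -1.75 and -1.92 on the arrays labelled Ets1/2 null, -2.95, -3.22 and -3.06 on Ets1 null arrays, -2.64, -2.87 and -3.04 on Ets2 null arrays and -2.73, -2.96 and -2.95 on wild type arrays. It lay above every other array, at 1.05 ± 0.16 over wild type (adjusted p = 0.00249), but on the deposited scale that difference was 0.33 (adjusted p = 0.115) and it held on both scales against Ets1 null alone (1.25 ± 0.16, adjusted p = 0.00121). Bmp2, an inducer of bone and of endothelial Id genes, was -5.30 and -1.38 on the arrays labelled Ets1/2 null, -3.65, -4.78 and -4.26 on Ets1 null arrays, 1.41, 0.29 and -0.40 on Ets2 null arrays and -1.47, -2.78 and -3.69 on wild type arrays. All Ets2 null arrays lay above all others, and the arrays labelled Ets1/2 null fell by 3.78 against Ets2 null (SE 1.07, adjusted p = 0.0273). Without Ets1/2 null replicate 1 the difference was -1.82 (adjusted p = 0.184), without replicate 2 it was -5.73 (adjusted p = 0.0059), and with the term for male arrays it was -2.01 ± 1.74 (adjusted p = 0.536). Ets2 null minus wild type did not pass the threshold (3.08 ± 0.96, adjusted p = 0.146). Bmp4, a BMP made by endothelium under disturbed flow, spread between -1.10 and 1.88 over all arrays and was called in no comparison.

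Outside the cell, chordin (Chrd), an antagonist that binds BMPs, lay 0.93 ± 0.28 above wild type on the arrays labelled Ets1/2 null (adjusted p = 0.0364), on the centred scale alone. Bmp1, the protease that cleaves chordin and procollagen and is not a BMP ligand, was 0.61 and 0.63 on the arrays labelled Ets1/2 null, 0.99, 0.69 and 0.50 on Ets1 null arrays, 1.63, 2.05 and 2.11 on Ets2 null arrays and 1.91, 0.63 and 0.79 on wild type arrays. It fell by 1.31 against Ets2 null (SE 0.35, adjusted p = 0.0223), while with the term for male arrays the difference was -0.11 (adjusted p = 0.881). That Bmp1 call was lost under 6 of 20 other settings, among them array weights and leaving out Ets2 null replicate 2 or 3. Bmper, a BMP-binding protein of endothelium, and Grem1, a BMP antagonist, were not called, with Bmper spread from -4.26 to 0.44 over all arrays and Grem1 from -1.65 to 1.04.

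By their brightest probe sets, 3 of 10 receptors were called higher and 0 lower on the arrays labelled Ets1/2 null, beside 16.4% of all genes higher against wild type, 17.4% against Ets1 null and 17.1% against Ets2 null. Dimmer probe sets of Acvr1, Tgfbr1, Tgfbr2 and Tgfbr3 were called lower against wild type and are given with the probe sets. Bmpr2, the type II BMP receptor whose loss underlies hereditary pulmonary arterial hypertension in people, was 2.97 and 3.03 on the arrays labelled Ets1/2 null, 1.67, 1.24 and 1.20 on Ets1 null arrays, 1.74, 2.19 and 1.99 on Ets2 null arrays and 1.68, 1.64 and 0.71 on wild type arrays. It lay above every other array and rose by 1.66 ± 0.30 against wild type (adjusted p = 0.00435) and 1.63 ± 0.30 against Ets1 null (adjusted p = 0.00475) on both scales. Against Ets2 null the difference was 1.03 ± 0.30 (adjusted p = 0.0286) on the centred scale alone. Its second, dim probe set read 0.42 above wild type (adjusted p = 0.345). The type I receptors Acvr1 and Bmpr1a were also called in all 3 comparisons but on the centred scale alone, at 1.03 ± 0.20 and 0.92 ± 0.22 against wild type (adjusted p = 0.0063 and 0.0146), with deposited differences of 0.31 and 0.20. The TGF-beta receptors Tgfbr1 and Tgfbr2 were not called by their brightest probe sets, at 0.36 ± 0.35 and 0.04 ± 0.35 against wild type (adjusted p = 0.464 and 0.95). The activin receptors Acvr1b, Acvr2a and Acvr2b, the co-receptor Tgfbr3 and the decoy receptor Bambi were not called in any comparison.

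Smad5 gave the lowest adjusted p of the members in each comparison of the arrays labelled Ets1/2 null. It was -1.48 and -1.61 on those arrays, 0.12, 0.20 and 0.33 on Ets1 null arrays, 0.74, 0.80 and 1.02 on Ets2 null arrays and 0.53, -0.01 and 0.50 on wild type arrays. Both arrays labelled Ets1/2 null lay well below the rest, and the Ets2 null arrays were the highest. Smad5 fell by 1.89 against wild type (SE 0.19, adjusted p = 0.000372), by 1.77 against Ets1 null (adjusted p = 0.000444) and by 2.40 against Ets2 null (adjusted p = 0.000115), on both scales. A second probe set fell by 1.50 against wild type (adjusted p = 0.00156), and the third differed by -0.67 (adjusted p = 0.0604). The same probe set also missed the threshold against Ets1 null (-0.31, adjusted p = 0.359) and Ets2 null (-0.28, adjusted p = 0.397). The other BMP Smad, Smad1, was 0.92 and 0.90 on the arrays labelled Ets1/2 null, 0.33, 0.72 and 0.40 on Ets1 null arrays, 0.19, -0.11 and 0.30 on Ets2 null arrays and 0.56, 0.79 and 0.81 on wild type arrays. Its difference from wild type was 0.19 ± 0.18 (adjusted p = 0.461), and it was called higher against Ets2 null (0.78 ± 0.18, adjusted p = 0.0106) on the centred scale alone. Smad4, the shared partner, lay 0.69 ± 0.16 above wild type (adjusted p = 0.0123) on the centred scale, but the deposited difference was -0.03. Smad3 was called higher against Ets1 null alone (0.97 ± 0.24, adjusted p = 0.0176, centred scale), and Smad2 was not called. These calls are by the brightest probe sets, and dimmer probe sets were called lower in the same comparisons. The second Smad3 probe set read -3.24 and -3.16 on the arrays labelled Ets1/2 null and -0.77 to -0.33 on Ets1 null arrays. The dimmest Smad1 probe set read -2.84 and -2.60, against -2.03 to -1.60 on Ets2 null arrays.

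Of the inhibitors inside the cell, Skil rose and the 2 inhibitory Smads went different ways. Skil, a co-repressor of Smad complexes whose protein is destroyed when TGF-beta signals, was 3.02 and 3.04 on the arrays labelled Ets1/2 null, 0.77, 0.45 and 0.73 on Ets1 null arrays, 0.63, 0.87 and -0.28 on Ets2 null arrays and 0.74, 1.30 and 0.22 on wild type arrays. Both arrays labelled Ets1/2 null stood above every other array. The rise was 2.27 ± 0.37 against wild type (adjusted p = 0.00299), 2.38 ± 0.37 against Ets1 null (adjusted p = 0.00259) and 2.62 ± 0.37 against Ets2 null (adjusted p = 0.0015), on both scales. Smad7, which blocks both branches, lay 1.07 ± 0.28 above wild type (adjusted p = 0.0207) on the centred scale, with 0.35 on the deposited scale. Smad6, which blocks mainly the BMP branch, was -0.12 and -1.03 on the arrays labelled Ets1/2 null, 0.49, -0.28 and -0.33 on Ets1 null arrays, 1.05, 0.87 and 1.05 on Ets2 null arrays and 0.02, 0.55 and -0.23 on wild type arrays. It fell by 1.57 against Ets2 null on both scales (SE 0.34, adjusted p = 0.00968), where all Ets2 null arrays lay above all others, and its difference from wild type was -0.69 ± 0.34 (adjusted p = 0.168). Without Ets1/2 null replicate 2 the difference from Ets2 null was -1.11 (adjusted p = 0.0732), and with the term for male arrays it was -1.70 (adjusted p = 0.164). Smurf1 and Smurf2, ubiquitin ligases for Smads and receptors, were not called.

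The 4 remaining members carry the pathway's name without being ligands, receptors or Smads, and none was called. They are the LIM protein Tgfb1i1, the matrix protein Tgfbi, the receptor-associated protein Tgfbrap1 and the kinase Bmp2k. Tgfbi separated the 2 arrays labelled Ets1/2 null from each other, at -0.47 and 4.03, while wild type arrays lay at 2.56 to 2.91. The lowest adjusted p among them against wild type was 0.056, for Tgfbrap1 at 0.86 ± 0.29.

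**Figure D2:**
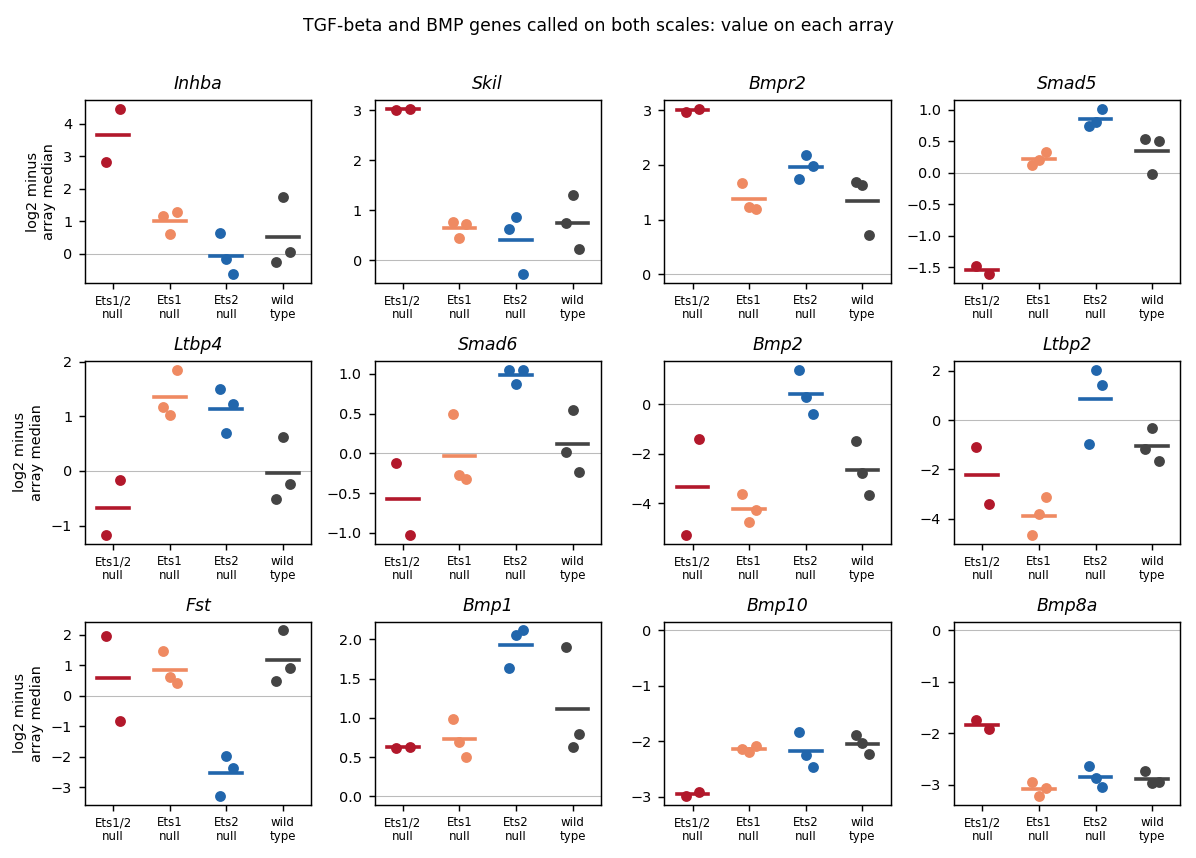
Value on each array (log2 minus the array's median gene) of the 12 members called on both scales in at least 1 comparison; points are arrays and bars are group means, with 2 arrays labelled Ets1/2 null and 3 in each other group. Inhba, Skil and Bmpr2 stand above and Smad5 and Bmp10 below every other array on the arrays labelled Ets1/2 null, while Fst is lowest and Bmp2 highest in Ets2 null.

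Whether a member moved depended in part on the probe set. On the array design 25 members had several probe sets, giving 82 for the 44 members. In a fit over all 18824 probe sets that name 1 gene, 14 of the 82 were called higher and 13 lower against wild type on the arrays labelled Ets1/2 null, beside 17.3% and 16% of all probe sets. In 6 of the 25 members (24%) a dimmer probe set was called in the direction opposite to the brightest, as in 20% of the 4785 genes with several probe sets. Smad3, the TGF-beta and activin Smad, was 0.53 above wild type by its brightest probe set and differed by -2.62 and -3.16 by the others (adjusted p = 0.000527 and 0.000123). Its second probe set read -3.24 and -3.16 on the arrays labelled Ets1/2 null, against -0.26, -0.14 and -1.33 on wild type arrays. Tgfbr1, the type I TGF-beta receptor, gave 0.36 by the brightest and -3.33 and -2.90 by the others (adjusted p = 0.000621 and 0.00113). Tgfbr2, its type II partner, gave 0.04 and -2.35 (adjusted p = 0.947 and 0.00475). Acvr1 was called in both directions, at 1.03 and -1.14 (adjusted p = 0.00517 and 0.00562). Smad4 was called higher by 2 probe sets, at 0.69 and 1.36, and lower by the other, at -1.05 (adjusted p = 0.0041). Smad1 gave 0.19, 0.63 and -1.67, of which the last alone was called (adjusted p = 0.000417). Bmp1 and Tgfbr3 differed in size, with -0.49 and -0.21 by the brightest probe set and -3.64 and -2.10 by the second. In 3 of the 4 probe sets of Bmpr1a the level was called higher, and the fourth differed by 0.10. Opposite calls occurred in 8 of 25 members against Ets1 null (32%, against 19.4% of genes) and in 6 against Ets2 null (24%, against 16.4%). Tgfbr1, Tgfbr2, Acvr1, Smad1, Smad3 and Smad4 had them in all 3 comparisons, and Ltbp3 and Tgfbr3 against Ets1 null alone. In either single null against wild type they occurred in 0 members, beside 0% of genes for Ets1 null and 0.167% for Ets2 null. In Ets2 null cells 0 of the 82 probe sets were called higher and 1 lower, beside 0.335% and 0.297% of all probe sets. Which transcripts these probe sets match was not tested.

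**Figure D3:**
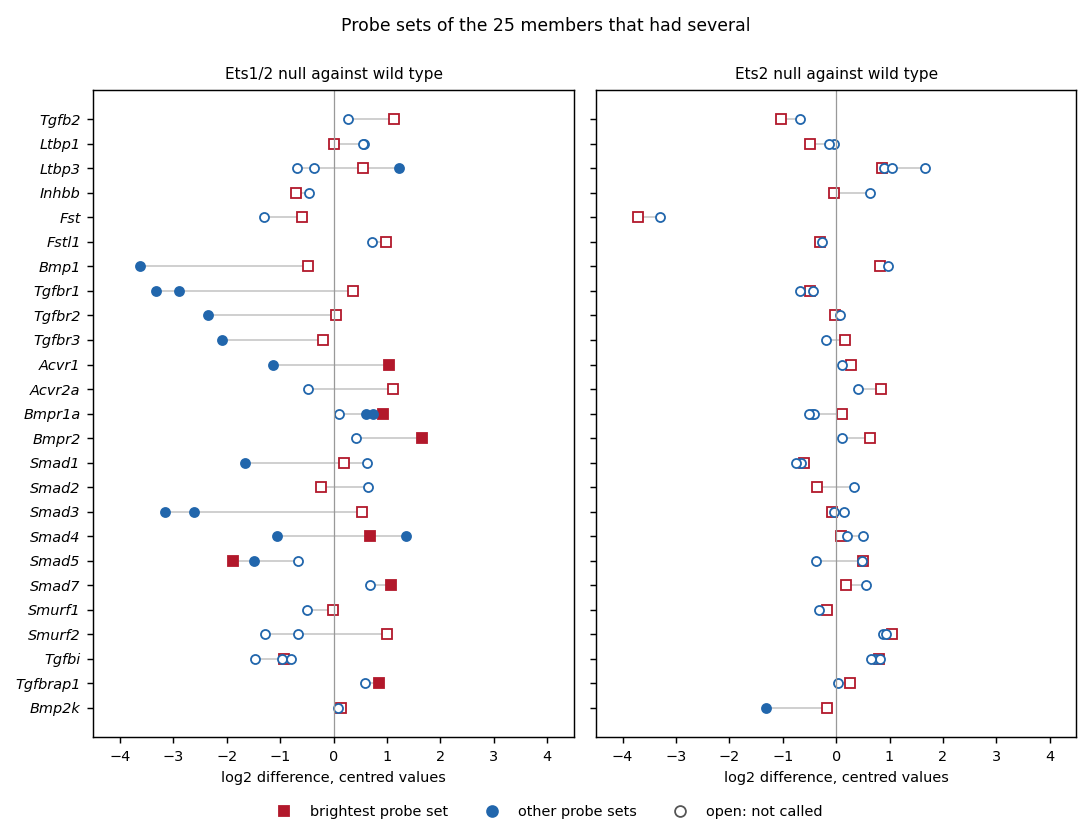
Difference from wild type (log2, centred values) of every probe set of the 25 members with several, in the arrays labelled Ets1/2 null (left) and in Ets2 null cells (right); squares are the brightest probe sets, circles the others, and filled symbols passed adjusted p under 0.05 over 18824 probe sets. On the left, probe sets of Smad3, Tgfbr1, Tgfbr2, Smad1, Smad4, Acvr1 and Ltbp3 lie on both sides of 0 with at least 1 called. On the right a single probe set, of Bmp2k at -1.31, was called.

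The labels allow an interaction contrast, the difference of the labelled Ets1/2 null minus Ets1 null less the difference of Ets2 null minus wild type. It rests on the labels, and on the arrays labelled Ets1/2 null the levels of both Ets1 and Ets2 by their brightest probe sets go against them. By this interaction 6 members were called (13.6%, against 14.5% of all genes), 4 higher and 2 lower, beside 7.54% and 6.94% of all genes. On both scales Skil was higher and Smad5 and Ltbp4 lower, beside 1.51% and 6.94% of all genes. Smad5 differed by -1.77 between the arrays labelled Ets1/2 null and Ets1 null and by 0.51 between Ets2 null and wild type, an interaction of -2.28 ± 0.25 (adjusted p = 0.00126). Its dimmest probe set gave an interaction of 0.08 (adjusted p = 0.896). Ltbp4 differed by -2.02 and by 1.18, an interaction of -3.20 ± 0.58 (adjusted p = 0.00953). Skil differed by 2.38 and by -0.35, an interaction of 2.72 ± 0.50 (adjusted p = 0.00964). The activin subunit Inhba (3.18 ± 0.89, adjusted p = 0.0448), Bmp8a (1.21 ± 0.22, adjusted p = 0.00921) and Smad1 (1.02 ± 0.24, adjusted p = 0.0224) were called on the centred scale alone. The interaction of Fst, 3.45 ± 1.07, missed the threshold (adjusted p = 0.0617), as did that of Bmp2 at -2.19 ± 1.44 (adjusted p = 0.333).

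**Figure D4:**
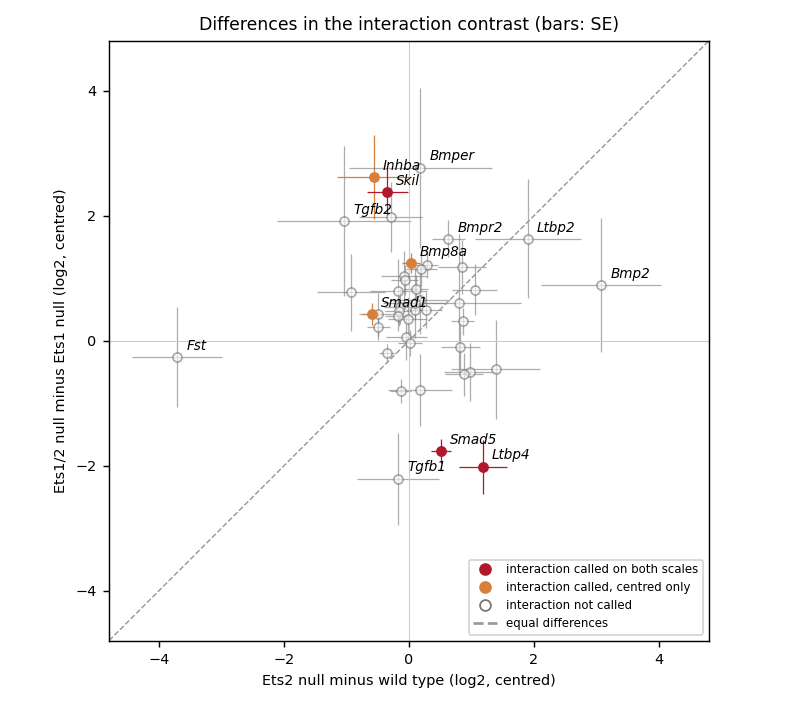
Difference of the arrays labelled Ets1/2 null minus Ets1 null (vertical) against the difference of Ets2 null minus wild type (horizontal) for the 44 members (log2, centred values; bars, SE), with the dashed line where both are equal. Filled points have a called interaction; Skil and Inhba lie above the line, and Smad5 and Ltbp4 below it.

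Genes around the members were counted from lists of the pathway drawn from general knowledge. Each gene of these lists is given by its brightest probe set. Several had further probe sets, which were not examined here. Among 12 measured BMP and Smad1/5 target genes of 19 listed, 1 was called higher and 2 lower on the arrays labelled Ets1/2 null against wild type, beside 16.4% and 12% of all genes, and the list's median difference was -0.09 beside 0.11 for all genes. Id1, an inhibitor of differentiation and the classic BMP target, was 0.18 and 0.44 on the arrays labelled Ets1/2 null, 2.27, 2.04 and 1.64 on Ets1 null arrays, 2.10, 2.56 and 2.20 on Ets2 null arrays and 2.14, 1.81 and 1.38 on wild type arrays. Every array labelled Ets1/2 null lay below every other array, and Id1 fell by 1.47 against wild type (SE 0.27, adjusted p = 0.00443), 1.68 against Ets1 null and 1.98 against Ets2 null. The related gene Id2 was 0.09 and 0.00 on the arrays labelled Ets1/2 null, 2.32, 1.53 and 1.05 on Ets1 null arrays, 1.89, 1.26 and 1.22 on Ets2 null arrays and -0.19, 0.40 and 0.31 on wild type arrays. It was low in both the first and the last group, and its interaction was -2.88 ± 0.48 (adjusted p = 0.00714). Ephb4, the ephrin receptor of veins, fell by 0.65 against wild type (adjusted p = 0.0145), and Hey1, a Notch and BMP target, was called higher on the centred scale alone. Apln, an endothelial peptide, rose by 1.68 ± 0.31 against Ets2 null on both scales (adjusted p = 0.00494).

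Of 28 measured TGF-beta and Smad2/3 target genes of 33 listed, 5 were called higher and 1 lower on the arrays labelled Ets1/2 null against wild type, beside 16.4% and 12% of all genes. The lower count rests on Ltbr (-1.59 ± 0.23, adjusted p = 0.00192, on both scales), which encodes the lymphotoxin beta receptor and is not usually counted as a TGF-beta target. The 5 higher genes were the matrix genes Fn1, Eln and Lox and the transcription factors Zeb1 and Tsc22d1. Against Ets2 null 8 were higher and 2 lower, beside 17.1% and 13.2% of all genes, with Col1a1, Lox, Eln and Acta2 higher and Zeb2 and Ltbr lower on both scales. Col1a1, a collagen gene and fibroblast marker, was 4.58 and 3.96 on the arrays labelled Ets1/2 null, 3.72, 3.11 and 2.94 on Ets1 null arrays, 0.99, -0.23 and 1.77 on Ets2 null arrays and 2.65, 3.91 and 2.43 on wild type arrays. All Ets2 null arrays lay below all others, at a difference of 3.43 ± 0.60 (adjusted p = 0.00377). Among 30 measured cytoplasmic and nuclear modulators of 32 listed, 9 were higher and 2 lower against wild type, beside 16.4% and 12% of all genes, and Zfyve16, an endosomal protein that binds Smads, rose by 1.90 ± 0.19 (adjusted p = 0.000355) on both scales. The lower 2 were the co-repressor Ski, a relative of Skil, at -0.67 ± 0.21 (adjusted p = 0.0392), and the ubiquitin protease Usp15. Tab2, an adaptor of the TGF-beta activated kinase, lay 0.74 ± 0.16 above wild type on the centred scale (adjusted p = 0.0098). Pmepa1, which sequesters Smads, rose by 3.24 ± 0.71 against Ets2 null on both scales (adjusted p = 0.00979). Among 16 genes of ligand activation and extracellular control of 27 listed, 1 was higher and 1 lower against wild type, beside 16.4% and 12% of all genes. The integrin gene Itgav was higher on the centred scale and the BMP-binding protein Twsg1 was lower on both scales (-0.67 ± 0.21, adjusted p = 0.0396). Of 9 measured co-receptors and other ligands of 25 listed, 0 were called against wild type, beside 28.3% of all genes. Against Ets2 null the endothelial TGF-beta co-receptor Eng (-2.26 ± 0.58, adjusted p = 0.0187) and the BMP co-receptor Rgma (-1.06 ± 0.29, adjusted p = 0.0223) were lower. Eng was -1.30 and -1.30 on the arrays labelled Ets1/2 null, -1.17, -1.17 and -1.16 on Ets1 null arrays, 0.50, 1.43 and 0.96 on Ets2 null arrays and 1.17, 0.38 and -1.29 on wild type arrays. In Ets1 null and Ets2 null cells against wild type 0 genes of these 5 lists were called, beside 0.00908% and 0.436% of all genes.

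**Figure D5:**
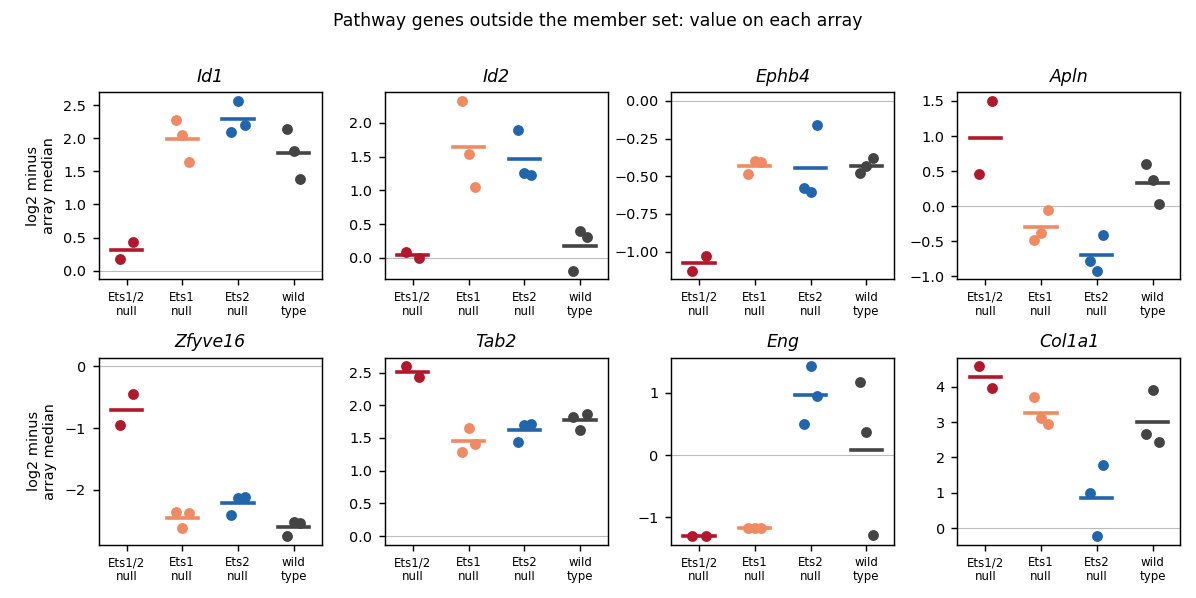
Value on each array (log2 minus the array's median gene) of 8 pathway genes outside the member set; points are arrays and bars are group means. Id1 and Ephb4 are lowest and Zfyve16 and Tab2 highest on the arrays labelled Ets1/2 null, and Col1a1 is lowest in Ets2 null.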

How the data were processed

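Values are log2 intensities that the authors deposited after RMA normalization, per the submitters' processing notes, on a mouse Affymetrix array with 20523 probe sets in the table. No aligned build or annotation is stated there. Probe sets naming 1 gene (18824) were kept, 549 naming several and 1150 naming none were left out, and the probe set with the highest mean over 11 arrays stood for each gene. The third Ets1/2 null column equalled the mean of the others in 20521 probe sets (tolerance 1e-06) and was left out. Each array was centred on its median gene. Groups were compared with limma 3.58.1 in R 4.3.3 (lmFit, eBayes, 1 fit over all 11 arrays, 7 residual degrees of freedom, two-sided, Benjamini-Hochberg over 11015 genes, adjusted p under 0.05). The fit was tested on simulated data. The labels call the samples biological replicates, and the number of arrays limits the precision. Descriptions of the single nulls partly contradict their titles, and titles and genotypes were followed. The members, lists and tests were chosen with earlier results of these data known. Genes given per array are members called on both scales, plus some members central to endothelial signalling. Same-numbered arrays did not deviate together (r -0.32 to 0.10 over 15 pairs), so no pairing was used. Alternatives tried are deposited values, quantile normalization, a filter at log2 6.5 on at least 2 arrays, mean of probe sets, other probe sets, array weights, a term for male arrays, compared groups only, a replicate block and leaving out each array. Promoters and symbols came from RefSeq tables (GRCm38.p6), in which all 44 members were found by symbol.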

Additional observations from a re-analysis of the deposited data

Results flagged for a closer look

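By the interaction term of the limma fit (the arrays labelled Ets1/2 null minus Ets1 null, less Ets2 null minus wild type) 6 members were called, 13.6%, beside 14.5% of all genes. The contrast rests on the labels. On the arrays labelled Ets1/2 null, by the brightest probe sets, Ets1 read 0.82 ± 0.25 above wild type and Ets2 1.33 ± 0.40 above Ets2 null. Other Ets1 probe sets differed. The interactions were -3.20 for Ltbp4, 3.18 for Inhba, 1.21 for Bmp8a, 1.02 for Smad1, -2.28 for Smad5 and 2.72 for Skil (log2, centred). On the deposited scale they were -3.95, 2.44, 0.47, 0.27, -3.02 and 1.98 in the same order, with adjusted p = 0.00141, 0.0653, 0.124, 0.455, 0.000123 and 0.0134. The dimmest Smad5 probe set gave 0.08 (centred, adjusted p = 0.896).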

How the results depend on the processing

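Counts of called members changed by over 1.5 times in 11 fits. Against Ets2 null the 19 calls on the arrays labelled Ets1/2 null became 1 with a term for male arrays, 10 with the compared groups alone and 12 with the replicate block (2.37%, 17.1% and 24.5% of all genes, against 30.3%), a term the labels do not call for since same-numbered arrays did not deviate together. Leaving out each array gave 10 to 19 there (20.7% to 33.1% of all genes), 6 to 14 against wild type (17.5% to 31.1%; 6 without Ets1/2 null replicate 2), 8 to 16 against Ets1 null (18.2% to 32%; 8 without Ets1 null replicate 2) and 4 to 9 for the interaction (8.37% to 15.2%). With array weights 8 members were called in Ets2 null against wild type (0 without them) and 13 by the interaction, beside 9.85% and 18.9% of all genes. The replicate block gave 11, 11 and 4 for the comparisons with wild type, Ets1 null and the interaction, beside 22.9%, 22.9% and 8.91% of all genes. It gave 0 for the single nulls, beside 0.0363% of all genes for Ets1 null and 0% for Ets2 null. Without centring, 3 members were higher and 12 lower against wild type, 4 and 8 against Ets1 null, 3 and 13 against Ets2 null, and 1 and 8 by the interaction. In the same order 45.9%, 44.5%, 46.3% and 31.6% of all genes were called in either direction. Of 25 calls of the members described per array, recomputed under 484 settings in all, 435 kept direction and call, 48 lost the call and 1 reversed, and 6 calls were kept under every setting run. These 6 calls were of Skil, Bmp8a, Ltbp4 and Bmp10. Each of these genes has 1 probe set, so the setting with another probe set could not be run for them. For them the mean of probe sets is also that same probe set. All 25 calls were picked as passing on the deposited scale too. The setting with deposited values therefore could not lose them, and the kept count is raised by it. The reversal was the Smad5 interaction, 0.0758 by the dimmest of its 3 probe sets (adjusted p = 0.896); the cause was not tested. The term for male arrays rests on 1 male wild type array, since all Ets2 null arrays were male. Probe sets near 6.5, as for Bmp10 and Bmp8a, limit what can be said of low levels.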
